A study of Hippoglossus hippoglossus with 15 samples.

Results

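The urea transporter transcript of the Atlantic halibut (Hippoglossus hippoglossus) embryo was followed through 1 probe, HH_Contig2338, of the 10180 probe names on a custom Agilent array. It was selected on measured values of these same arrays. The authors listed it among 160 transcripts higher at the 8-cell stage (8CS) than at any later stage, and its level at the stages is therefore given as a description, without a test. The comparison of low with high quality 8CS embryos did not enter that choice and was tested, although it shares the 3 high quality 8CS arrays. The name rests on the sequence similarity search of the authors. No column of the files ties the probe to a gene of the reference annotation, which holds 1 symbol of the slc14a family, so the probe was not placed in the genome.

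Urea transporters of the SLC14 family are channel-like membrane proteins through which urea passes down its concentration gradient. Most adult teleosts shed their nitrogen waste as ammonia over the gill and make little urea. A marine pelagic egg has no gill and floats in water saltier than its own fluids. Its yolk holds a large store of free amino acids, which keep the egg buoyant and are later burned as fuel, freeing ammonia within a closed shell. Embryos of several teleosts make and hold urea before hatching. The paper cites earlier signs that in halibut maternal transcripts give way to zygotic ones between the blastula and germ ring stages. A transcript present at 8CS is therefore taken as laid down by the mother.

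Whole embryos of high quality were sampled as 3 replicates each at 8CS (8 h post fertilisation, hpf), at the germ ring stage (GR, 82 hpf), at the stage with 10 somites (10SS, 142 hpf) and at hatching (HT, 340 hpf), and low quality embryos as 3 replicates at 8CS only. All eggs were fertilised in vitro with sperm pooled from males, and the methods call a replicate a batch. The paper's text describes the stage series as coming from a commercial farm. It describes the quality comparison as coming from a university stock, incubated in dishes with antibiotics and graded by fertilisation and hatching success. The labels, however, name the farm for every sample. The same 3 high quality 8CS arrays serve both comparisons. If the paper's account holds, stock and incubation cannot be told apart from stage or from quality in at least 1 of these comparisons. Total RNA was labelled with Cy3 and each sample filled 1 array, so that 15 arrays on 5 slides were analysed and their number limits the precision. Since RNA of whole embryos was read, fewer cells holding a transcript and less of it per cell cannot be told apart. Signals were scaled within each array, so the amount of a transcript per embryo was not measured.

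Between 69.3% and 90.1% of the probes per array were well above background and no probe spot was saturated. Replicates within a group correlated at 0.961 or more over the probes, except that 10SS replicate 3 correlated at 0.861 and 0.865 with the other 10SS arrays. Means, folds and counts that rest on it are also given without it. The stage labels were checked against listed markers. The linker histone h1m, a histone of the oocyte, was at 6.55 in high quality 8CS and at -6.29 at HT on the log2 scale explained next, and the hatching enzyme, which digests the egg shell, was well above background on the 3 HT arrays only. These markers were themselves listed by the study from these arrays.

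A level here is the log2 of the processed signal relative to the 75th percentile of the array, averaged over the spots of a probe, so that 0 is the brightness of the probe at that percentile. In high quality 8CS embryos the transporter was at -0.18, -0.78 and -0.88 in replicates 1, 2 and 3 (mean -0.62 ± 0.38, SD, n = 3). In low quality 8CS embryos it was at 0.59, -0.50 and -0.51 (mean -0.14 ± 0.63, SD, n = 3). Every 8CS array thus lay within about a doubling of its 75th percentile. At GR the levels were -5.88, -5.50 and -3.86 (mean -5.08 ± 1.08, SD, n = 3). At 10SS they were -8.45, -6.45 and -8.60 (mean -7.83 ± 1.20, SD, n = 3). All 6 arrays of 8CS lay above all arrays of the later stages, and the lowest 8CS array was 2.98 above the highest later one, GR replicate 3. At HT the levels were -8.39, -7.72 and -8.12 (mean -8.08 ± 0.33, SD, n = 3), within the range of 10SS.

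**Figure D1:**
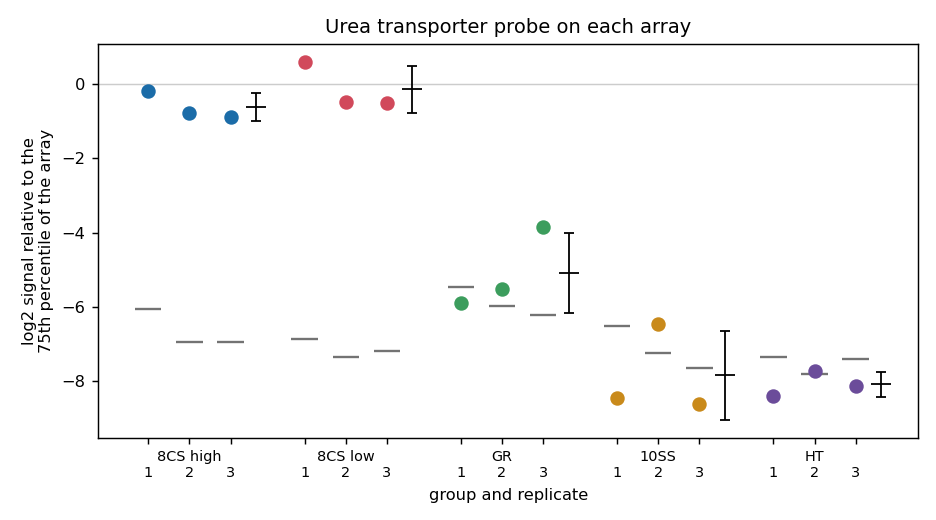
Level of the urea transporter probe (log2 signal relative to the 75th percentile of the array) on each of the 15 arrays, with each coloured point 1 array and the black bar the mean and SD of 3. Grey dashes mark the lowest signal that counted as well above background on that array: all 6 points of 8CS lie far above it, while GR replicate 1, 10SS replicates 1 and 3 and HT replicates 1 and 3 lie below it.

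By group mean, low quality 8CS came before high quality 8CS, and GR before 10SS and HT. Both 8CS groups overlapped. So did 10SS and HT, which cannot be ranked, since no HT array was well above background and their means changed places with spike-in scaling (-7.16 at 10SS and -6.63 at HT). GR and 10SS did not overlap on this scale, the lowest GR array being at -5.88 and the highest 10SS array at -6.45, but this separation depended on the scaling. When arrays were scaled to their spike-in probes instead, GR ranged from -6.83 to -5.43 and 10SS from -8.21 to -5.58, which overlap. Under the same scaling the lowest 8CS array was still 3.57 above the highest later array. Without 10SS replicate 3 the mean of the other 2 arrays of 10SS was -7.45.

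The spots show where the signal ended. The probe was printed in 4 spots on each of the 15 arrays. In high quality 8CS embryos the processed signal of a spot, which is its intensity after background subtraction, lay between 456 and 676, and in low quality embryos between 600 and 1910. Local background of these and all other spots of the probe was between 13 and 23. At GR the 12 spots lay between 11.7 and 40.7, at 10SS between 2.72 and 24.2 and at HT between 6.3 and 19.4. The 3 later stages thus overlapped at low values of the processed signal, and the lowest 8CS spot (456) lay far above the highest later one (40.7).

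All 12 spots of high quality and all 12 of low quality 8CS were marked well above background by the extraction software. At GR 8 of 12 spots were, those of replicates 2 and 3, at 10SS the 4 spots of replicate 2, and at HT 0 of 12. By the weaker mark for a signal that is positive and differs from background, all 12 spots passed at GR, 6 of 12 at 10SS and 11 of 12 at HT. The transcript was therefore measured at 8CS, on 2 of 3 arrays at GR and on 1 of 3 at 10SS. At HT it was not detectable well above background on any array. Spots of 1 array differed little where the signal was strong, with an SD on the log2 scale of 0.0159 to 0.0293 in high quality and 0.0125 to 0.117 in low quality 8CS. That SD reached 0.807 at 10SS and 0.727 at HT, so single later values carry a large spot error.

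**Figure D2:**
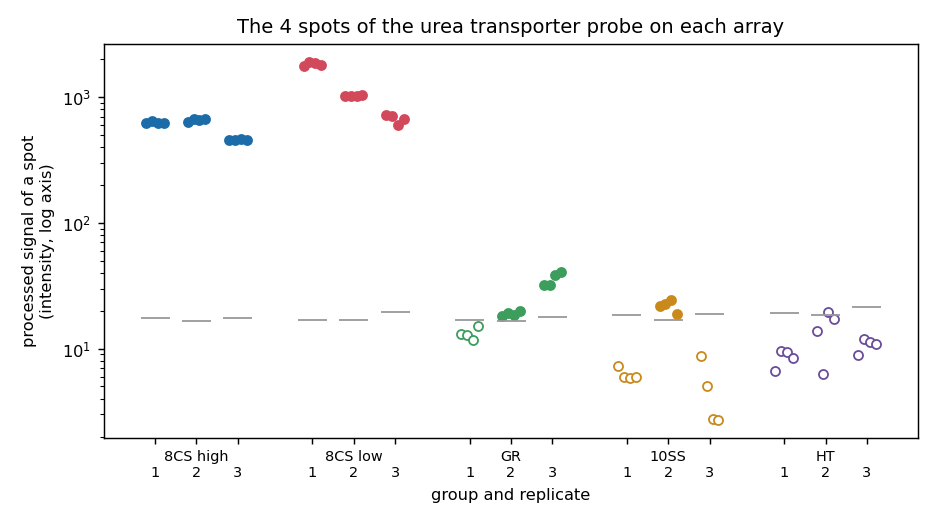
Processed signal (intensity, log axis) of each of the 4 spots of the urea transporter probe on the 15 arrays, filled where the spot was well above background and open where it was not, with grey dashes for the median local background of those spots. The 24 filled spots of 8CS lie at 456 or more, against 12 filled and 24 open spots at the later stages.

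One of the spots behaved unlike the others at 8CS. Spot 1 was marked as an outlier on 4 of the 6 8CS arrays and left out there. On those arrays its median pixel signal was 73.6% to 80.6% of that of the other spots. Its processed signal was 94.4% to 99.4% of theirs. None of the 36 spots of later stages was marked. Keeping these spots moved the difference between qualities from 0.48 to 0.49.

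Because the dimmer groups were not well above background on every array, a fold is given as a bound, with the dim signal of each array set no lower than the lowest signal that counted as well above background there. On HT replicate 2 the transporter (-7.72) lay above that lowest signal (-7.81) although it was not well above background. The bounds are therefore approximate. Relative to the array, the transporter signal of high quality 8CS embryos was at least 20-fold that of GR embryos, where the measured means differed by 22.1-fold. This bound holds for the scaled processed signal with all arrays. The measured fold was 16.7 without GR replicate 1 and 33.8 without GR replicate 3, and with normexp, which lifts dim signals, it was 5.33, or 6.46 once faulty local backgrounds were replaced. Against 10SS the bound was at least 76.2-fold, and at least 58.3-fold without 10SS replicate 3. Against HT it was at least 117-fold. For low quality 8CS embryos the bounds were at least 27.9-fold over GR, 106-fold over 10SS (81.2-fold without 10SS replicate 3) and 163-fold over HT. With normexp the means lay closer together, at -0.27 in high quality and -0.04 in low quality 8CS, -4.46 at 10SS and -5.19 at HT. With spike-in scaling the means were -1.48 in high quality and -0.26 in low quality 8CS, -7.16 at 10SS and -6.63 at HT. The folds between these spike-in means lay below the bounds with all arrays, except for low quality 8CS over 10SS. The bounds against 10SS and HT thus hold only for the processed signal scaled to the array percentile that defines a level here.

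The slides did not hold all groups, so these differences were also read within a slide. On slide 4 high quality 8CS replicate 3 was 7.88-fold and low quality 8CS replicate 3 10.2-fold brighter than GR replicate 3, all well above background. GR replicate 3 was the brightest of the later arrays, and these folds are smaller than those between the stage means. On slide 2 low quality 8CS replicate 2 was 5.39 above GR replicate 1 on the log2 scale, where GR replicate 1 was not well above background. On slide 3 GR replicate 2 was 1.93-fold above 10SS replicate 2 relative to the 75th percentile of each array, both well above background. Their processed signals had the opposite order, with medians over the spots of 18.8 at GR and 22.1 at 10SS. The 3 HT arrays lay on slide 5, which held no 8CS array, so for HT slide and stage cannot be told apart.

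Ranked by brightness among the 10180 probe names of an array, with 1 the brightest, the transporter took places 2719, 3326 and 3473 in high quality 8CS and places 2041, 2995 and 3001 in low quality 8CS. Between 65.9% and 80% of the probes of an 8CS array were thus dimmer than it. At GR it took places 7744, 7746 and 6483, at 10SS 9987, 8665 and 9516, and at HT 9612, 9435 and 9478. On 10SS replicate 1 only 1.9% of the probes were dimmer. The rank compares brightness of probes that bind with unequal strength and is no order of transcript abundance, and among probes near the background it has little meaning.

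Set beside the other transcripts listed at 8CS, the transporter stood at the end of the list. Its mean at 8CS exceeded that of the next highest stage by 4.47 on the log2 scale, the largest such excess of the 160, against a list median of 2.16. The next in the list was elongin a (HH_90602129), a subunit of an elongation factor of RNA polymerase II, with 3.99. Of the 7513 probes well above background on every high quality 8CS array, 1 had a larger excess. The list was drawn for this excess, so its size is part of the choice and no finding. Without GR replicate 1 the excess was 4.06 and without GR replicate 3 it was 5.08.

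The difference from the 8CS mean was also taken on each later array. On GR replicates 1 and 2 the transporter differed from its 8CS mean by -5.27 and -4.89, where the list median was -2.34 on both arrays, and 0 of the listed transcripts lay further below. On GR replicate 3 it differed by -3.24, against -1.89 for the list median, and 5 transcripts lay further below. GR replicate 3 was the highest of the 3 GR arrays for the transporter and for 126 of the 160 transcripts. At 10SS the arrays came in another order. Replicates 1, 2 and 3 had list medians of -5.36, -4.72 and -4.01 relative to 8CS, and replicate 3 was the highest of the 3 for 111 of the 160 transcripts. The transporter differed by -7.83, -5.84 and -7.98, and only replicate 2 was well above background. On replicate 3, 2 listed transcripts lay further below than the transporter, against 31 and 39 on replicates 1 and 2. Since the transporter was not well above background on replicates 1 and 3, it has no order between these.

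**Figure D3:**
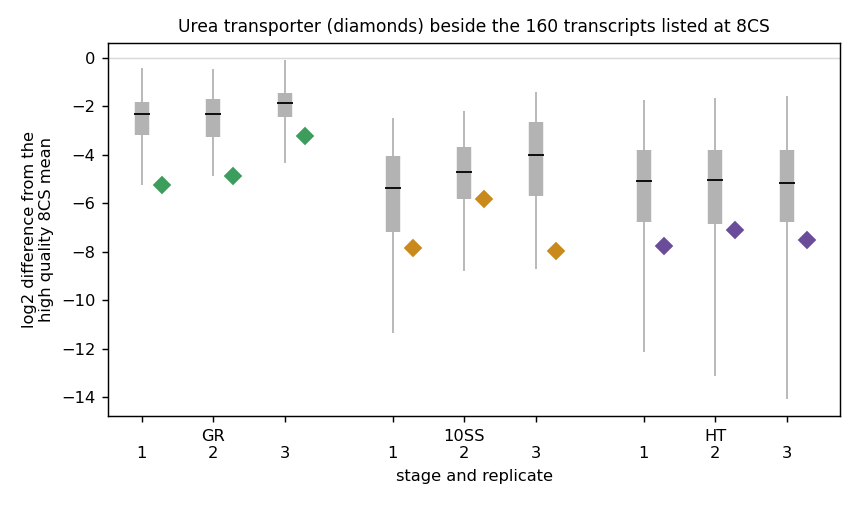
Difference from the high quality 8CS mean (log2) on each GR, 10SS and HT array for the urea transporter (coloured diamonds) and for the 160 transcripts listed at 8CS, which include it (grey line the full range, grey bar the quartiles, black dash the median). The diamond lies below the lower quartile on all 9 arrays: it marks the end of the range on GR replicates 1 and 2, and at 10SS it is highest on replicate 2, while the list median is highest on replicate 3.

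On the 3 HT arrays the transporter differed from its 8CS mean by -7.77, -7.11 and -7.51, and 26, 35 and 33 of the listed transcripts lay further below. The list medians were -5.11, -5.03 and -5.18. A probe that reaches the background can show no larger difference, so transcripts brighter at 8CS had more room to differ by HT.

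The comparison of egg qualities asked whether 8CS embryos of poor batches carry other maternal transcripts than those of good batches. The transporter was 0.48 higher in low than in high quality 8CS embryos on the log2 scale (SE 0.36, 95% interval -0.40 to 1.35, limma adjusted p = 0.392), which is 1.39-fold with an interval of 0.76-fold to 2.55-fold. The groups overlapped, as high quality replicate 1 lay above low quality replicates 2 and 3. The exact two-sided permutation test gave p = 0.4, where 3 arrays against 3 cannot go below 0.1. The interval includes both no difference and a 2-fold higher level in low quality embryos, but no 2-fold lower level.

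Of the 8737 probes tested between qualities, 102 or 1.17% passed the adjusted p under 0.05 with at least a 2-fold difference, 0.16% higher and 1.01% lower in low quality embryos. The split moved with the scaling, from 14 higher and 88 lower here to 39 and 49 with quantile normalization. It was 38 and 54 in the deposited log2 values. Spike-in scaling turned it, to 2159 higher and 207 lower. Normexp background correction gave 0 calls, but 16 higher and 65 lower once faulty local backgrounds were replaced. With 1 array left out the total was 11 to 708. The transporter was not one of them. Its difference was positive where the median over all probes tested was -0.06, and 16.3% of the probes had a more positive one. Among the 160 transcripts listed at 8CS the median difference was 0.03, with 86 positive and 74 negative, and 30 of them were above the transporter. The 1 that passed was HH_Contig2081, programmed cell death 1 ligand 1, a surface protein that restrains T cells, at 1.91 higher in low quality embryos (SE 0.26, limma adjusted p = 0.0342). This call was lost with normexp, when slide entered the fit as fixed, and when the replicate number was a block. It was also lost without any 1 of the arrays other than high quality replicate 3. These losses concern the array call only. The paper lists the same transcript as higher in low quality embryos. It reports the same direction by quantitative PCR, run on more samples per quality than the arrays.

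**Figure D4:**
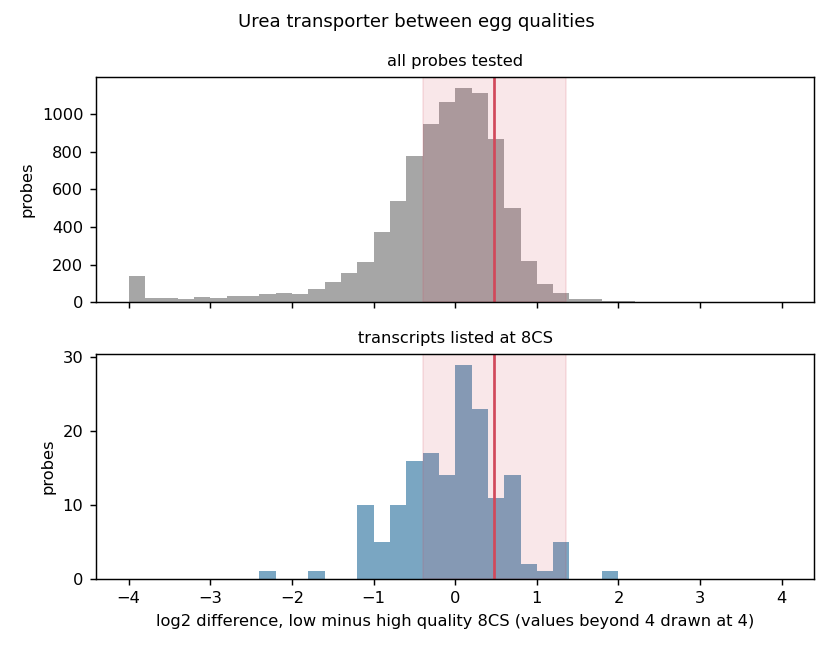
Histograms of the log2 difference between low and high quality 8CS embryos (low minus high) for the 8737 probes tested and for the 160 transcripts listed at 8CS. The red line marks the urea transporter at 0.48 and the pink band its 95% interval, which spans 0 and lies over the bulk of both distributions.

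The direction was the same on both slides that held both qualities. On slide 1 low quality replicate 1 was 0.78 above high quality replicate 1 and 1.38 above high quality replicate 2. On slide 4 low quality replicate 3 was 0.37 above high quality replicate 3. Without low quality replicate 1 the difference was 0.11. The value thus rested in large part on 1 array, whose 4 spots lay between 1757 and 1910.

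The scaling moved this comparison across the threshold in 1 case. With arrays scaled to the spike-in probes the difference was 1.23 (SE 0.34, limma adjusted p = 0.0335), and the groups no longer overlapped, the highest high quality array being at -1.19 and the lowest low quality array at -0.57. That scaling moved the median difference over all probes from -0.06 to 0.69, that is by 0.75. It shifts all probes of an array by the same amount. The transporter's distance above the median, 0.54, is therefore by construction the same as in the scaling to the 75th percentile. Over 21 alternatives the difference was between 0.11 and 1.23 and the adjusted p between 0.0335 and 0.849.

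Other genes of nitrogen metabolism were taken from the same lists of stage-specific transcripts, where the authors had placed each for its level on these arrays. Of 7 such genes, 4 could be tested between qualities with limma and 0 passed, nor did any have an unadjusted p under 0.05, which 31.1% of all probes tested had (median difference 0.12). The other 3, urate oxidase, hydroxyisourate hydrolase and pipecolic acid oxidase, were not well above background on any 8CS array. Agmatine ureohydrolase (HH_193889040), which splits agmatine into putrescine and urea and so yields the substrate of the transporter, was the only one of the 7 listed at 8CS. It was at 1.12, 1.13 and 1.18 in high quality and at 1.18, 1.32 and 1.00 in low quality 8CS embryos, groups that overlapped. The difference was 0.03 (SE 0.16, 95% interval -0.37 to 0.42, limma adjusted p = 0.924), an interval narrower than that of the transporter.

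Unlike the transporter, agmatine ureohydrolase was detected well above background throughout, on all 15 arrays. In GR embryos it was at -2.30, -2.09 and -0.92, at 10SS at -5.17, -4.37 and -3.48 and at HT at -4.82, -4.65 and -4.52. Its relative signal in high quality 8CS embryos was 7.52-fold that of GR, 44.6-fold that of 10SS (60.2-fold without 10SS replicate 3) and 56-fold that of HT. Both transcripts were thus highest in 8CS embryos, and only the enzyme was still measured on every array at hatching.

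Enzymes of purine breakdown appeared at other stages. Urate oxidase (HH_90605985), which opens the path from urate towards allantoin and, in fishes that keep the later steps, urea, was at -4.09, -3.90 and -2.91 at GR. That was at least 8.07-fold above high quality 8CS and at least 14.6-fold above HT, where it was not well above background. At 10SS its levels were -8.34, -8.62 and -2.48, of which replicate 3 alone was well above background. The hydrolase of the next step, hydroxyisourate hydrolase (HH_90604223), had levels of -3.25, -3.67 and -9.20 at 10SS, where replicates 1 and 2 alone were well above background. At HT it was at -5.12, -5.05 and -5.17, at least 2.9-fold above high quality 8CS. On 10SS replicate 3 both enzymes thus lay on the side of GR, where urate oxidase was measured and the hydrolase was not, whereas the transporter did not lie at its GR level on that array.

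The other 4 genes were each highest after 8CS. Diamine n-acetyltransferase 2 (HH_Contig2012), which acetylates diamines, had means of -4.45 in high quality 8CS, -2.46 in GR, 1.05 in 10SS and -0.84 in HT embryos, and of 1.32 at 10SS without replicate 3. Adenosine kinase (HH_Contig1434), which returns adenosine to AMP, had means of -2.70, -1.06, -0.80 (-0.64 without 10SS replicate 3) and -2.06. Kynurenine 3-monooxygenase (HH_Contig903), of tryptophan breakdown, had means of -2.20, -2.27, -0.48 and -1.39, with 10SS replicate 3 at -2.28 against 0.47 and 0.36 on the other 10SS arrays. Pipecolic acid oxidase (HH_90598317), of lysine breakdown, was well above background at HT only, at -4.94, at least 3.26-fold above high quality 8CS.

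**Figure D5:**
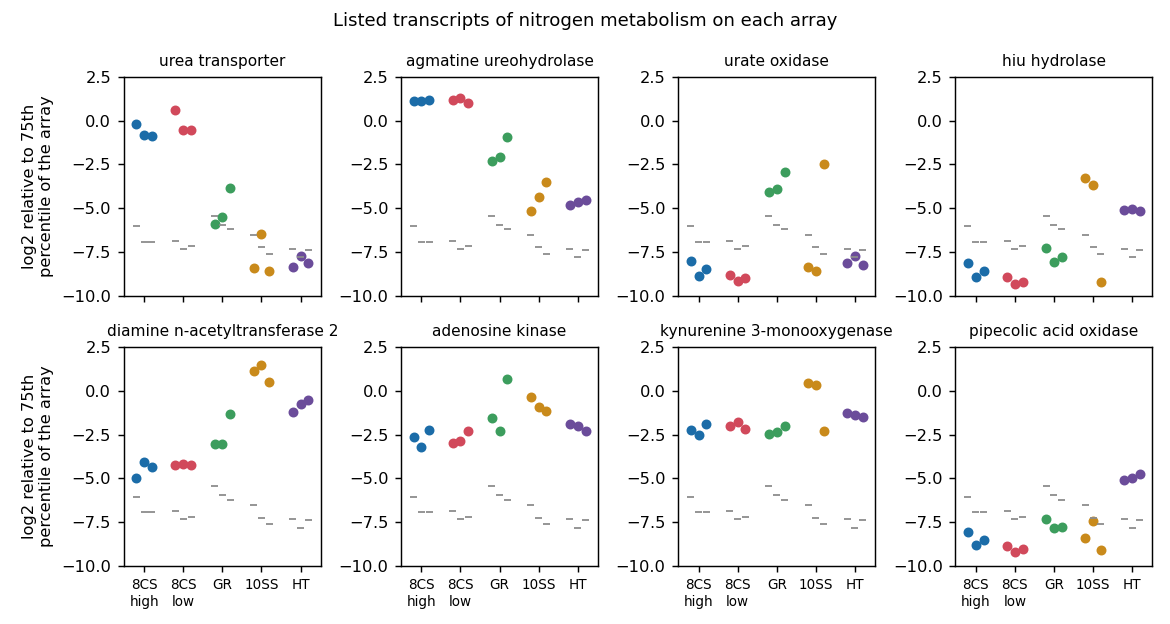
Levels (log2 relative to the 75th percentile of the array) of the urea transporter and the 7 listed transcripts of nitrogen metabolism, with 1 point per array, 3 per group, and grey dashes for the lowest signal well above background on each array. The transporter and agmatine ureohydrolase are highest in both 8CS groups, the other 6 later, and at 10SS single arrays of urate oxidase, hydroxyisourate hydrolase and kynurenine 3-monooxygenase stand apart from the rest of their group.

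Counted by limma with the same thresholds, 3 of the 7 genes were higher and 1 lower at GR than at 8CS, where 42.2% of all 9283 probes passed (21.6% higher and 20.7% lower). Between GR and 10SS 2 were higher and 1 lower, again beside 42.2% of all probes (18.1% higher and 24.1% lower), and without 10SS replicate 3 the counts were 3 and 2. Between 10SS and HT 1 was higher and 1 lower, beside 14.5% of all probes (8.93% higher and 5.57% lower), and without that array 1 and 3. The median log2 differences of the 7 were 0.84, 0.26 and -0.91 in these comparisons, beside medians of 0.14, -0.23 and -0.05 over all probes. Since the genes were listed for their stage, these counts describe the list only. The shares over all probes come from the fit with 10SS replicate 3 and do not belong to the counts without it.

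Among 11 listed genes of membrane transport and ion handling, 8 were tested between qualities with limma and 0 passed, while 1, SLC25A5, had an unadjusted p under 0.05, against 31.1% of all probes. Their median difference was -0.48, beside -0.06 over all probes, with 7 negative and 1 positive. The transporter's value was positive, with an interval that includes 0. These signs belong to the scaling used here, since spike-in scaling moves every such difference up by 0.75. The monocarboxylate carrier of the SLC16 family (HH_Contig2928) differed by -1.14 (SE 0.57, limma adjusted p = 0.216) and SLC25A5 (HH_Contig2674), the carrier that swaps ADP for ATP over the mitochondrial inner membrane, by -0.66 (SE 0.26, limma adjusted p = 0.151). Chloride intracellular channel 1 (HH_90607394) differed by -0.53 and carbonic anhydrase VII (HH_Contig3056), which hydrates carbon dioxide, by -0.44. Claudin 4 (HH_Contig106), a protein of tight junctions, was the 1 with a positive value, at 0.18 (SE 0.17, limma adjusted p = 0.508).

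Across the stages, 2 of the 11 were higher and 5 lower at GR than at 8CS, 1 higher and 7 lower at 10SS than at GR, and 2 higher and 3 lower at HT than at 10SS. Over all probes the shares higher and lower were 21.6% and 20.7%, 18.1% and 24.1%, and 8.93% and 5.57%, and these genes too were listed for their stage. Without 10SS replicate 3 the counts for 10SS against GR were 2 and 7, and for HT against 10SS 2 and 4. The shares over all probes come from the fit with that array and do not belong to these counts. Carbonic anhydrase VII was also highest at 8CS, going from 1.38 at high quality 8CS over -1.48 at GR and -5.66 at 10SS (-6.12 without replicate 3) to -7.20 at HT. Claudin 4 went from 6.13 over 3.20 and -2.24 (-2.78 without it) to -6.99. Its 10SS replicates 1, 2 and 3 were far apart, at -5.24, -0.33 and -1.16. At HT both genes were well above background on 1 of 3 arrays only, and at 10SS carbonic anhydrase VII was on 2 of 3. The organic cation transporter SLC22A2 (HH_90598196) was well above background at 10SS only, at -1.82, -2.07 and -6.75 on its 3 arrays, the last being replicate 3.

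The probes most like the transporter were sought by Pearson correlation over the 15 arrays among 9282 probes. The closest were HH_90603851 (r = 0.991) and HH_90602956 (r = 0.989), named general transcription factor polypeptide 30kda, and the tenth had r = 0.985. Of these 10, 2 are in the list for 8CS, HH_90602956 and HH_193889242, and the tables used here name 1 of the 10. The correlation is a description over 15 arrays that share slides and a strong separation of 8CS from the rest, and 810 probes (8.73%) exceeded 0.9. Among the other 159 transcripts listed at 8CS its median was 0.942. Over the 12 high quality arrays 6 of the 10 were again among the top 10, and 4 were with Spearman's correlation, with dim levels set to the lowest signal well above background, or without 10SS replicate 3.

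The closest probe, HH_90603851, had means of -1.76 in high quality and -1.63 in low quality 8CS, -5.41 in GR, -7.89 in 10SS and -7.98 in HT embryos. Between qualities 0 of the 10 passed with limma and 1 had an unadjusted p under 0.05, against 31.1% of all probes. That was HH_193889802, 0.93 higher in low quality embryos (SE 0.24, limma adjusted p = 0.0854).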

How the data were processed

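Per array, the authors deposited the Agilent Feature Extraction output, in which each spot has a processed intensity, background-subtracted and not yet comparable between arrays. Its headers name version 10.7.1.1, the submitters' processing notes 7.2. A second deposited table holds log2 values of 9017 probes, centred per probe, and was used as an alternative.

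Control and outlier spots were dropped, each log2 intensity was set relative to its array's 75th percentile, and spots sharing a probe name were averaged. A probe counted as well above background on an array where most of its spots did. Testing required the 20th percentile to be reached on 1 array or more. The tool was limma 3.58.1 (lmFit, eBayes; R 4.3.3), with calls at a Benjamini-Hochberg adjusted p under 0.05 and 2-fold or more, fitted over 6 8CS arrays for quality and 12 high quality arrays for stage. The code was tested on simulated data. P-values measure the spread between the batches as labelled.

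The gene, the lists and the tests were chosen with earlier results of these data known. Named are the transporter, members of both gene lists, stage markers and the 10 probes most correlated with it; elongin a and programmed cell death 1 ligand 1 were added after their values were seen. Alternatives covered background correction, scaling, filters, spot summaries, slide and replicate blocks, other fits and leaving out each array.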

Additional observations from a re-analysis of the deposited data

How the results depend on the processing

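The difference of the transporter between qualities kept its direction under all 21 alternatives and its side of the threshold under 20, the exception being spike-in scaling (1.23). It lay between 0.11 and 0.69 when 1 array was left out, and with the replicate block it was 0.48 (limma adjusted p = 0.202). The replicate numbers did not pair the 8CS arrays of the 2 qualities, since same-numbered arrays had deviations correlated at -0.03, -0.14 and -0.10 and 0 correlated best with its own number. Nor did they clearly pair GR with 8CS, 10SS with GR or HT with 10SS, the stages compared here. For 10SS with GR the correlations were 0.09, 0.05 and -0.04, with 2 of 3 best with their own number. For GR with 8CS and for HT with 10SS it was 1 of 3. High quality 8CS and 10SS, which were not compared by a test, had correlations of 0.35, 0.45 and 0.57, with 1 of 3 best with its own number.

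The excess of 8CS over the next stage was 2.41 with normexp and 2.69 with normexp after faulty local backgrounds were replaced. It was between 4.06 and 5.08 with 1 array left out. Normexp was run on median pixel signals with an offset of 50 added to each, which lifts dim signals, and no other offset was tried. The number of probes called between qualities, 102 here, was 0 with normexp, 2366 with spike-in scaling, 174 among probes well above background on every array of a group, 23 with slide as a fixed block, 17 with the replicate block, 340 with all 15 arrays in one fit and 158 with a variance prior that follows intensity. With 1 array left out it was 11 to 708: 17 without high quality replicate 1, 23 without replicate 2, 708 without replicate 3, 11 without low quality replicate 1 and 17 without replicate 2.

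Of the 160 transcripts listed at 8CS, 1 was called between qualities here. The number was 0 with normexp, and 1 once faulty local backgrounds were replaced. It was 0 with slide as a fixed block or the replicate block, and 46 with spike-in scaling. Scaling to the 75th percentile of probes detected on all arrays gave 2, as did keeping outlier spots. Slide as a random block and all 15 arrays in one fit gave 2 as well. It was 3 with the stricter filter and 6 with the variance prior that follows intensity. With 1 array left out it was 0 to 5: 5 without high quality replicate 3 and 0 without any other 8CS array. In the nitrogen and membrane transport lists it was 0 under all 22 alternatives. Normexp called 1682 probes between GR and 8CS, and 2619 once faulty local backgrounds were replaced, against 3922 here. The causes of these shifts in the counts were not tested. At 10SS and HT the signal over background limits every statement on the transporter to a bound.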

Other observations

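In the table of log2 values that the authors deposited, which are centred on the median of each probe, the transporter was at 5.38, 4.73 and 4.60 in high quality and at 6.14, 5.09 and 5.08 in low quality 8CS embryos. The same table has -0.03, 0 and 1.58 for GR, -3.09, -1.44 and -2.71 for 10SS and -2.82, -2.59 and -2.68 for HT. There, too, every 8CS array lay above every later array, and low quality replicate 1 was the highest.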
